A study of Gallus gallus with 8 samples.

Results

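Intermediate filaments are the third filament system of a muscle cell, beside actin and microtubules, and 7 of their genes were examined in engineered chick muscle tissues by symbol: *DES* (desmin), *VIM* (vimentin), *NES* (nestin), *SYNM* (synemin), *LMNA* (lamin A), *LMNB1* (lamin B1), and *LMNB2* (lamin B2). The tables list 5 of the 7 under these symbols, among 17775 genes in all. *NES* and *LMNB2* are not analysed here under their own names. The row listed as *LMNA* lies between the genes that flank *LMNB2* in the RefSeq annotation, so its identity is uncertain. At week 3, *SYNM* was higher than at week 1, *VIM* and the row listed as *LMNA* were lower, with differences between the week means of -17.2% and -15.7%, and *DES* and *LMNB1* did not pass the test.

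The tissues were grown from primary myoblasts of E10 chick thigh muscle, which were enriched by pre-plating and seeded on micromolded gelatin hydrogels crosslinked with transglutaminase. Lowering the serum after confluence started differentiation. RNA was taken on day 21 from the week 3 tissues (3-1, 3-2, and 3-3) and on day 7 from the week 1 tissues (1-1 to 1-5), and none of the 8 tissues held motor neurons. No sorting step was described, so the RNA comes from all cells of a tissue, and the labels do not say whether the tissues of a week or of both weeks shared a myoblast harvest.

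In a developing muscle fiber, desmin filaments tie the Z discs of neighboring myofibrils to each other and to the cell membrane, the mitochondria, and the nucleus. Vimentin is the filament protein of myoblasts and fibroblasts and is made alongside desmin in young myotubes. Synemin and nestin are large filament proteins that assemble together with desmin or vimentin rather than alone. Lamins form the meshwork beneath the inner nuclear membrane, where B-type lamins are made in most cells and A-type lamins accumulate as cells differentiate.

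The week 3 libraries held 15447904 to 18902561 estimated counts per tissue, and the week 1 libraries held 14368710 to 16545497. Levels are given as FPKM-UQ, which in these tables holds the estimated count, raised by 1 and scaled with a single factor for each tissue. Gene length does not enter it, so levels are compared between tissues for 1 gene and not between genes. In edgeR's quasi-likelihood test, 3367 of 14311 genes (23.5%) had an adjusted p below 0.05 between the weeks. Tissue 1-1 stood apart from the other week 1 tissues, and 5498 genes (38.6%) passed the same test when it was left out. Calls of the members and counts of the lists that change without tissue 1-1 are given both ways. Such counts are to be read against these shares of all genes, 23.5% with it and 38.6% without. Of the 8 myotube markers matched, such as *MYOG* (myogenin) at 196.0 ± 1.74 FPKM-UQ at week 3 (SD, n = 3) and 174.8 ± 9.49 at week 1 (SD, n = 5), none was at or near 0. Their summed level ranged from 17414.7 to 17911.6 FPKM-UQ at week 3 and from 16205.6 to 24593.5 at week 1, and of the 8 *TNNI2* (troponin I) rose and *ACTA1* (skeletal actin) fell. Without tissue 1-1, 3 of the 8 rose and 3 fell.

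Of the 5 genes listed, 3 had an adjusted p below 0.05 in edgeR, against 23.5% of all genes tested. One of them was higher at week 3, against 11.5% of all genes, and the other 2 were lower, against 12.0%. The same 3 genes had FPKM-UQ values that did not overlap between the weeks, as did 29.9% of all genes. Under the definition of a differentially expressed gene used in the study, an unadjusted p below 0.05 with a fold change above 1.5, none of the 5 passed in edgeR, against 14.6% of all genes, although 3 of the 5 had an unadjusted p below 0.05. Across all genes tested the median log2 fold change was -0.01.

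**Figure D1:**
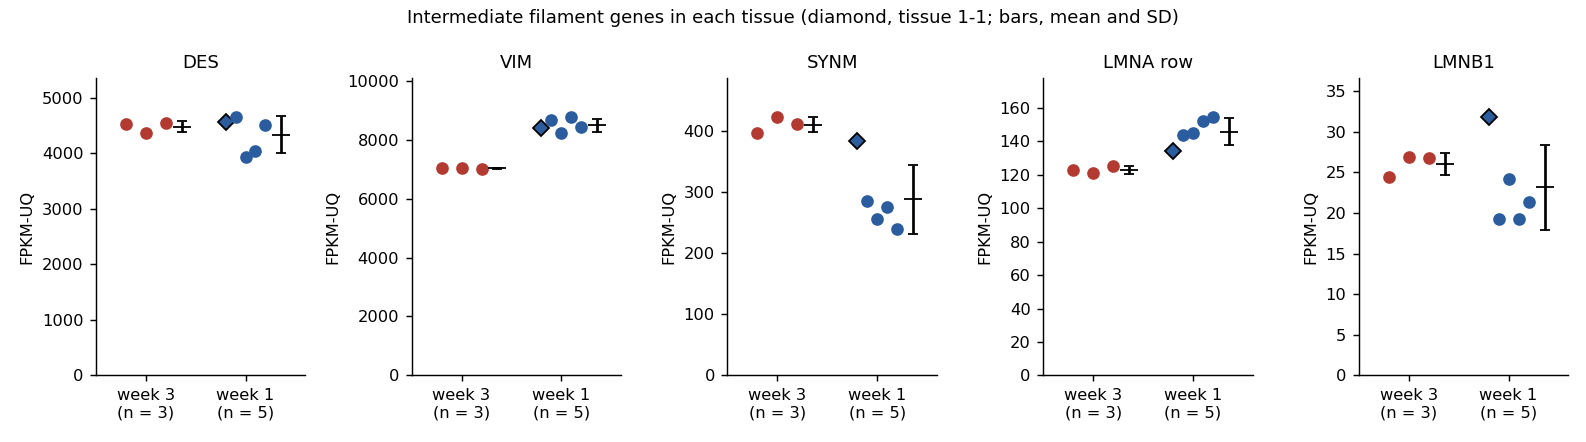
FPKM-UQ of each listed intermediate filament gene in the 3 week 3 tissues (red) and the 5 week 1 tissues (blue), with the mean and SD beside the points and tissue 1-1 as a diamond. *VIM* and the *LMNA* row lie lower at week 3 in every tissue, *SYNM* lies higher, and the values of *DES* and *LMNB1* overlap.

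*DES* (chromosome 7, positions 22170600 to 22175003 of GRCg6a, minus strand) encodes the main cytoplasmic filament of muscle. It was at 4522.6, 4363.8, and 4546.3 FPKM-UQ in tissues 3-1, 3-2, and 3-3, against 4557.9, 4649.4, 3932.2, 4035.8, and 4506.7 FPKM-UQ in tissues 1-1 to 1-5. The week 3 values all lay inside the range of the week 1 values, of which tissues 1-3 and 1-4 were the low ones. The means were 4477.6 ± 99.2 FPKM-UQ at week 3 (SD, n = 3) and 4336.4 ± 328 at week 1 (SD, n = 5). The log2 fold change was 0.03 with a standard error of 0.08 (adjusted p = 0.81, edgeR), and without tissue 1-3 it was -0.01 (adjusted p = 0.97, edgeR). The paper lists *DES* among key genes of its principal component analysis and marks its expression as higher at week 3. *DES* took 0.447% to 0.464% of all counts at week 3 and 0.388% to 0.474% at week 1. The coefficient of variation between tissues was 2.22% at week 3 and 7.56% at week 1. The gene *DNPEP* overlaps *DES* on the other strand, and its count was at most 2.47% of that of *DES* in any tissue.

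*VIM* (chromosome 2, positions 19700327 to 19802857, minus strand) was lower at week 3. Its level was 7045.9, 7036.0, and 6996.8 FPKM-UQ in the week 3 tissues, against 8393.8, 8651.7, 8220.7, 8764.5, and 8420.3 FPKM-UQ in tissues 1-1 to 1-5. Every week 3 tissue was below every week 1 tissue, and tissue 1-1 lay among the others of its week. The means were 7026.2 ± 26 FPKM-UQ at week 3 and 8490.2 ± 217 at week 1 (SD, n = 3 and 5), so the week 3 mean differed by -17.2%. The log2 fold change was -0.29 with a standard error of 0.06 (adjusted p = 0.0066, edgeR), and it passed the same test whichever single tissue was left out, at -0.30 to -0.28 with adjusted p up to 0.047 in edgeR. *VIM* took 0.713% to 0.723% of all counts at week 3 and 0.821% to 0.872% at week 1. The week 3 tissues were nearly identical, with a coefficient of variation of 0.37%, against 2.55% at week 1. The labels do not say whether these tissues were separate cultures. The small spread, on which the p-values rest, may therefore be technical. *ST8SIA6* lies inside the *VIM* interval on the other strand, with a count of at most 0.298% of that of *VIM*. In bulk RNA, fewer cells of a type and less RNA per cell cannot be told apart, and this holds for every gene described here.

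Fibroblasts are a known source of vimentin, and their markers were set beside *VIM*. Of the 13 fibroblast markers tested, 8 fell and 2 rose (3 rose and 10 fell without tissue 1-1), with a median log2 fold change of -0.45. The markers that fell included *COL3A1* (collagen III), *PDGFRA* (a growth factor receptor of fibroblasts), and *LUM* (lumican), while *POSTN* (periostin) and *FBN1* (fibrillin 1) rose. The 13 markers summed to 27135.3 to 27915.6 FPKM-UQ at week 3 and 24675.6 to 38766.7 at week 1. Tissue 1-1 had the lowest sum of all 8 tissues. Most of that sum is *COL1A1* and *COL1A2*, which did not pass (adjusted p = 0.15 and 0.35, edgeR). In tissue 1-1 *VIM*, at 8393.8 FPKM-UQ, was above all of week 3. So were *COL3A1*, *COL6A3*, *PDGFRA*, *LUM*, *OSR1*, *TCF7L2*, and *DPT*, while *COL1A1*, *COL1A2*, *DCN*, *THY1*, *POSTN*, and *FBN1* were below it. Of 7 muscle progenitor markers tested, 1 rose and 3 fell (1 and 4 without tissue 1-1). The matched progenitor markers, with untested ones included, summed to 1204.6 to 1245.5 FPKM-UQ at week 3 and 1216.6 to 1478.1 at week 1. Most of that sum is *CDH15*, which did not pass (adjusted p = 0.41, edgeR). *PAX7* (log2 fold change -2.31, adjusted p = 6.9e-04, edgeR), *MYF5* (-3.08, 1.2e-04), and *MYOD1* (-0.51, 0.0039) fell, and *SDC4* rose (0.55, 0.0057). The next 3 sums also include matched markers that were not tested. Of 4 macrophage and leukocyte markers tested, 3 fell, and the matched ones summed to 32.7 to 34 FPKM-UQ at week 3 and 43 to 79.9 at week 1. Of 5 endothelial markers tested, 2 fell, and the matched ones summed to 29.2 to 33.5 and 46.9 to 52.1 FPKM-UQ. Matched Schwann cell markers (1 higher and 1 lower of 4 tested, or 2 and 1 without tissue 1-1) summed to 54.3 to 55.9 FPKM-UQ at week 3 and 49.2 to 69.2 at week 1. Markers of cartilage and tendon (1 higher and 2 lower of 6, or 2 and 3 without tissue 1-1) summed to 36.7 to 37.7 and 53.1 to 81.1. No matched marker of any list was at 3 counts or fewer in all 8 tissues. The part of these cells in the *VIM* result was not tested.

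*SYNM* (chromosome 10, positions 17303559 to 17324082, plus strand) was the 1 member that rose. It was at 397.6, 422.9, and 411.4 FPKM-UQ in the week 3 tissues, against 384.4, 285.4, 256.4, 275.4, and 239.3 FPKM-UQ in tissues 1-1 to 1-5. The weeks did not overlap, but tissue 1-1 came close to week 3 while the other 4 week 1 tissues stayed well below it. The means were 410.6 ± 12.6 FPKM-UQ at week 3 and 288.2 ± 56.6 at week 1 (SD, n = 3 and 5), a difference of 42.5%. Without tissue 1-1 the week 1 mean was 264.1 ± 20.5 (SD, n = 4). The log2 fold change was 0.50 with a standard error of 0.13 (adjusted p = 0.016, edgeR), and 0.62 without tissue 1-1 (adjusted p = 5.6e-09, edgeR). The call was lost without tissue 3-2 (log2 fold change 0.47, adjusted p = 0.068, edgeR) or tissue 3-3 (0.50, adjusted p = 0.057, edgeR). The coefficient of variation was 3.08% at week 3 and 19.6% at week 1. The *SYNM* counts were not whole numbers in any of the 8 tissues, as happens where the counting divides reads between rows, so its level is less certain than that of *DES* or *VIM*, whose counts were whole in all 8 tissues.

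Smooth muscle also makes synemin and desmin. Of 7 smooth muscle markers, 3 rose (*ACTA2*, the smooth muscle actin, *TAGLN*, transgelin, and *LMOD1*, leiomodin 1) and *SMTN* (smoothelin) fell. Their summed level was 3333.4 to 3382.2 FPKM-UQ at week 3 and 813.5 to 1113.7 at week 1, with tissue 1-1 the highest of its week. Most of that sum is *ACTA2*, at 2459.6 ± 9.69 FPKM-UQ at week 3 and 592.8 ± 90.1 at week 1 (SD, n = 3 and 5). *ACTA2* itself was highest of week 1 in tissue 1-4, at 696.4 FPKM-UQ, against 669.4 in tissue 1-1. *MYH11* (smooth muscle myosin) was at 3.6 ± 0.899 FPKM-UQ at week 3 and 2.71 ± 0.915 at week 1 (SD, n = 3 and 5), and *MYOCD* (myocardin) at 7.48 ± 0.369 and 6.82 ± 1.59. *CNN1* (calponin 1) was at 67.1 ± 6.02 and 67.2 ± 8.41. None of these 3 passed edgeR's test (adjusted p = 0.35 for *MYH11*, 0.69 for *MYOCD*, and 0.93 for *CNN1*). The part of these cells in the *SYNM* result was not tested.

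The row listed as *LMNA* (chromosome 28, positions 729616 to 757181 of GRCg6a, minus strand) is uncertain in its identity. Its neighbors in the count table are *TIMM13* and *RPL36*. In the RefSeq annotation of GRCg7b those genes flank *LMNB2*, which also carries *LMNA* among its synonyms, whereas *LMNA* itself lies between *ANP32E* and *MEX3A*. There *LMNB2* is on chromosome 28 and *LMNA* on chromosome 25, so the position of the row is that of *LMNB2*, although its symbol is *LMNA*. The row may hold the reads of lamin B2, of lamin A, or of both, and it is called the *LMNA* row here. Its counts were whole in only 4 of the 8 tissues, which adds the same uncertainty as for *SYNM*. It was at 122.7, 120.9, and 125.2 FPKM-UQ in the week 3 tissues, against 134.0, 144.0, 144.8, 152.1, and 154.5 FPKM-UQ in tissues 1-1 to 1-5. All week 3 tissues were below all week 1 tissues, of which tissue 1-1 was the nearest. The means were 122.9 ± 2.17 at week 3 and 145.9 ± 8.06 at week 1 (SD, n = 3 and 5), a difference of -15.7%. The log2 fold change was -0.26 with a standard error of 0.06 (adjusted p = 0.012, edgeR), and -0.29 without tissue 1-1 (adjusted p = 9.7e-05, edgeR). The call was lost without tissue 3-1 (-0.26, adjusted p = 0.053, edgeR) or tissue 3-2 (-0.25, adjusted p = 0.064, edgeR).

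*LMNB1* (chromosome Z, positions 56417094 to 56440974, plus strand) encodes a B-type lamin. Its level was 24.4, 26.9, and 26.8 FPKM-UQ in the week 3 tissues, against 31.8, 19.2, 24.2, 19.2, and 21.3 FPKM-UQ in tissues 1-1 to 1-5. Tissue 1-1 was the highest of all 8 tissues, and the other week 1 tissues were below every week 3 tissue. The means were 26 ± 1.42 FPKM-UQ at week 3 and 23.1 ± 5.27 at week 1 (SD, n = 3 and 5), and the week 1 mean without tissue 1-1 was 21 ± 2.34 (SD, n = 4). The log2 fold change was 0.15 with a standard error of 0.15 (adjusted p = 0.52, edgeR). Without tissue 1-1 it was 0.30 and passed the test (adjusted p = 0.016, edgeR), so this 1 tissue decides the call. The median centered log2 level of 616 genes of the Z chromosome was 0.02 to 0.04 at week 3 and -0.03 to 0.04 at week 1, with tissue 1-1 at 0.04. Of 13 markers of proliferating cells, *CCNB1* (a cyclin B) rose and no other marker passed, whereas 3 rose and 1 fell without tissue 1-1. The *CCNB1* row was matched here through a RefSeq synonym of *CCNB2* and is uncertain. The 13 markers summed to 221.2 to 244.4 FPKM-UQ at week 3 and 189.5 to 232.5 at week 1. Tissue 1-1, with the most *LMNB1*, had the lowest sum, but the markers disagreed. In tissue 1-1 *MCM2* and *MCM3* were the highest of week 1, while *TOP2A*, *CDK1*, *CCNB3*, *CCNA2*, *PCNA*, and *RRM2* were the lowest. The part of proliferating cells in the *LMNB1* result was not tested.

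**Figure D2:**
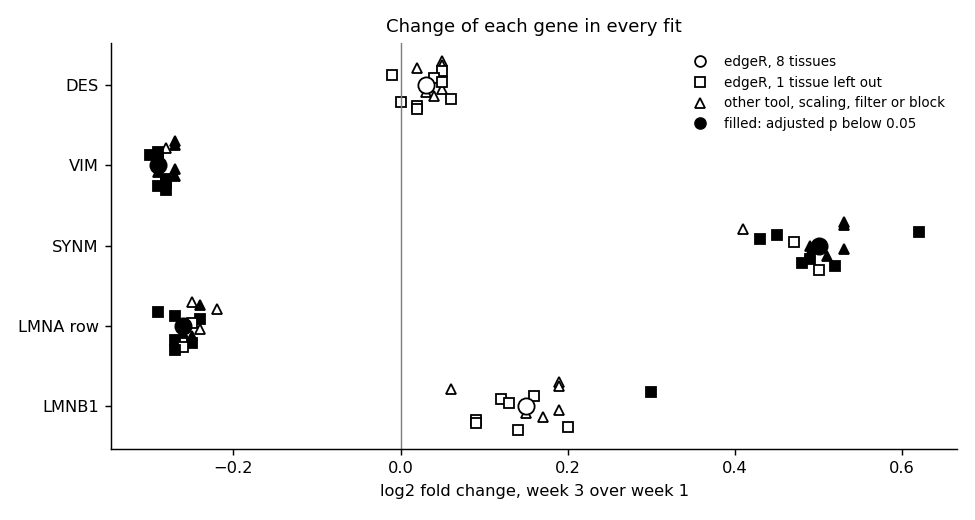
Log2 fold change of week 3 over week 1 for each listed gene in the edgeR test on 8 tissues (circles), in edgeR with 1 tissue left out (squares), and with another tool, scaling, filter, or block (triangles), filled where the adjusted p was below 0.05. *VIM*, *SYNM*, and the *LMNA* row keep their sign throughout, while *DES* crosses 0 and the outermost square of *LMNB1*, at 0.30, is the fit without tissue 1-1.

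The relative RNA levels of the filament genes were examined as count ratios within each tissue, which need no scaling between tissues. The RNA comes from all cells of a tissue, so the ratios do not measure the make-up of a filament. The 3 ratios depend on gene length and are compared only between the weeks. The *VIM* to *DES* ratio was 1.56, 1.61, and 1.54 in the week 3 tissues, against 1.84, 1.86, 2.09, 2.17, and 1.87 in tissues 1-1 to 1-5. It averaged 1.57 ± 0.0381 at week 3 and 1.97 ± 0.153 at week 1 (SD, n = 3 and 5), with a log2 difference of -0.32 (p = 0.0357, exact two-sided permutation test, and 0.0536 after Benjamini-Hochberg adjustment over the 3 ratios). All week 3 ratios were below all week 1 ratios, and 0.0357 is the smallest p that 3 tissues against 5 allow. The adjusted p was above 0.05, so this ratio did not pass after adjustment. With the ratio of *LMNB1* to the *LMNA* row at p = 0.143 in the same permutation test, no adjusted p below 0.0536 was possible here.

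The *SYNM* to *DES* ratio was 0.0879, 0.0969, and 0.0905 in the week 3 tissues, against 0.0843, 0.0614, 0.0652, 0.0682, and 0.0531 in tissues 1-1 to 1-5. It averaged 0.0918 ± 0.00462 at week 3 and 0.0664 ± 0.0115 at week 1 (SD, n = 3 and 5), with a log2 difference of 0.48 (p = 0.0357, exact two-sided permutation test, adjusted 0.0536). Again no tissue of week 3 overlapped with week 1, and tissue 1-1 was the nearest to week 3. This ratio did not pass after adjustment either, and 0.0536 was again the lowest adjusted p possible. The log2 fold change of *DES* was 0.03, so the ratios to *DES* largely repeat the changes of *VIM* and *SYNM*. The ratio of *LMNB1* to the *LMNA* row was 0.198, 0.222, and 0.213 in the week 3 tissues, against 0.237, 0.133, 0.167, 0.126, and 0.137 in tissues 1-1 to 1-5. Here tissue 1-1 was above week 3 and the other 4 were below it. Because the identity of the *LMNA* row is uncertain, the ratio cannot be read as B-type over A-type lamin. The ratio averaged 0.211 ± 0.0121 at week 3 and 0.16 ± 0.0459 at week 1 (SD, n = 3 and 5), with a log2 difference of 0.44 that did not pass (p = 0.143, exact two-sided permutation test, adjusted 0.143). Without tissue 1-1 the difference was 0.59 (p = 0.0571, exact permutation test, the smallest that 3 against 4 allows).

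**Figure D3:**
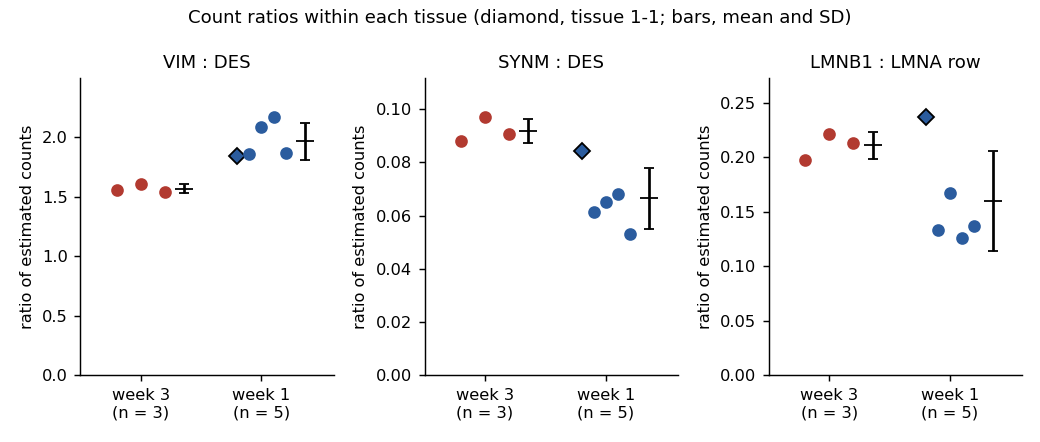
Ratios of estimated counts within each tissue for week 3 (red, n = 3) and week 1 (blue, n = 5), with the mean and SD and tissue 1-1 as a diamond. The *VIM* to *DES* ratio is lower and the *SYNM* to *DES* ratio higher in every week 3 tissue, and in the ratio of *LMNB1* to the *LMNA* row tissue 1-1 lies above week 3.

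The genes whose levels followed each member most closely over the 8 tissues were found among 13392 genes, by the root mean square difference of centered log2 FPKM-UQ values. For *DES* these were *GATD3A* (0.0433), *SGCA* (0.0443), and *MYO18A* (0.0466). *SGCA* encodes a sarcoglycan of the dystrophin complex, and like *DES* it was lowest in tissues 1-3 and 1-4, with levels of 63.7 to 68.7 FPKM-UQ at week 3 and 59.3 to 68.8 at week 1. For *VIM* they were *PPP1R2* (0.0332), *SETD2* (0.0337), and *LRP5* (0.0342), and for the *LMNA* row *CORO1B* (0.0217), *MVP* (0.0237), and *POLDIP2* (0.0337). For *SYNM* they were *ATP13A3* (0.0814), *SERINC1* (0.0817), and *PIP5K1B* (0.0827), and for *LMNB1* *MYOCD* (0.0645), *TPP2* (0.0725), and ENSGALG00000050405 (0.078). The matches of *SYNM* and *LMNB1* share their high level in tissue 1-1, where *SERINC1* was at 705.0 FPKM-UQ against 461.8 to 531.8 in the other week 1 tissues, and *TPP2* at 107.1 against 72.5 to 86.7. Such likenesses, also that of *SGCA* to *DES*, follow from the search, which used the same 8 tissues.

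The partners of these filaments were described in 5 lists with 70 genes tested, of which 31 passed edgeR's test at an adjusted p below 0.05, against 23.5% of all genes. Their median log2 fold change was 0.04, against -0.01 for all genes. Without tissue 1-1 the number that passed was 41, when 38.6% of all genes passed, and without tissue 3-2 it was 19, when 14.6% of all genes passed. The lists were drawn up from textbook roles but with earlier results of these data known, so these shares only describe the lists. Up to 4 genes of each list are named by size among those that passed without overlap. Some main partners were not matched and are not covered by the counts. Among them are *PLEC* (plectin), *FLNC*, *NEB*, *EMD* (emerin), *SYNE1*, *KRT8*, *FNTB*, and *RCE1*.

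Of 15 other intermediate filament genes tested, 7 rose and 2 fell (7 and 3 without tissue 1-1), with a median log2 fold change of 0.42. Keratins, the filament proteins of epithelia, made up the extremes. *KRT7* was at 56.7 ± 1.69 FPKM-UQ at week 3 and 16.3 ± 0.948 at week 1 (SD, n = 3 and 5; log2 fold change 1.78 ± 0.08 SE, adjusted p = 9.0e-08, edgeR). *KRT13*, which is matched here through a RefSeq synonym of *KRT15* and is uncertain, moved the other way. It was at 11.5 ± 0.208 FPKM-UQ at week 3 and 35.9 ± 12.3 at week 1 (log2 fold change -1.66 ± 0.28 SE, adjusted p = 0.0013, edgeR), and tissue 1-1, at 15.9, was far below the 36.1 to 49.6 of the other week 1 tissues. *KRT18* and *KRT80* rose on very few reads. *KRT18* had 24, 18, and 13 estimated counts in the week 3 tissues, against 5, 5, 0, 3, and 5 in tissues 1-1 to 1-5, with a log2 fold change of 2.07 ± 0.55 SE (adjusted p = 0.018, edgeR). *KRT80* had 21, 15, and 26 counts, against 7, 7, 6, 3, and 4, with a log2 fold change of 1.68 ± 0.39 SE (adjusted p = 0.0084, edgeR). The call of *KRT18* was lost without tissue 3-1 (adjusted p = 0.084, edgeR) or 3-2 (0.07), and that of *KRT80* without tissue 3-3 (0.06).

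The remaining 5 genes of that list that passed are named after their values were seen. *KRT14* rose, at 103.7 ± 3.35 FPKM-UQ at week 3 and 35.9 ± 7.35 at week 1 (log2 fold change 1.52, adjusted p = 1.4e-05, edgeR), and *NEFL*, the neurofilament light chain, rose at a low level, to 6.86 ± 1.61 FPKM-UQ against 2.62 ± 0.969 at week 1 (1.39, adjusted p = 0.0036, edgeR). *NEFM*, the medium chain, rose (0.81, adjusted p = 0.04, edgeR) but passed only without tissue 1-1 or 1-5 among the 8 fits that leave out a tissue. *IFFO2* rose (0.42, adjusted p = 0.012, edgeR; not past the threshold without tissue 3-2, adjusted p = 0.062) and *IFFO1* fell (-0.33, adjusted p = 0.006, edgeR). *SYNC* (syncoilin), a muscle filament protein that binds desmin in mouse, was at 53.3 ± 3.79 FPKM-UQ at week 3 and 58 ± 5.07 at week 1 and did not pass (log2 fold change -0.13, adjusted p = 0.28, edgeR).

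**Figure D4:**
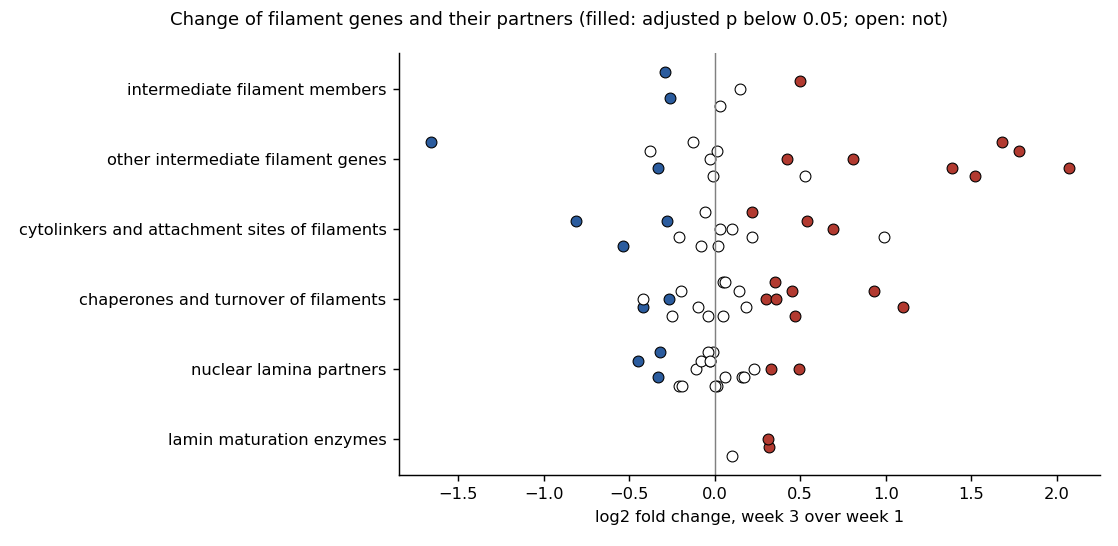
Log2 fold change of week 3 over week 1 for each tested gene of the filament genes and of the 5 partner lists, filled where the adjusted p was below 0.05 in edgeR (red, higher at week 3; blue, lower) and open where it was not. The other intermediate filament genes span the widest range, -1.66 to 2.07, and the 19 nuclear lamina partners lie between -0.45 and 0.49.

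Of 14 cytolinkers and attachment proteins, which fasten filaments to membranes and junctions, 3 rose and 3 fell (6 and 4 without tissue 1-1), with a median log2 fold change of 0.02. *DTNA*, the dystrobrevin that binds synemin in mammals, was at 182.0 ± 6.98 FPKM-UQ at week 3 and 315.2 ± 46.8 at week 1 (SD, n = 3 and 5; log2 fold change -0.81 ± 0.11 SE, adjusted p = 3.7e-04, edgeR). *DMD* (dystrophin), its partner at the membrane, was at 239.8 ± 7.33 and 344.0 ± 48 FPKM-UQ (-0.54 ± 0.10 SE, adjusted p = 0.0034, edgeR). Both fell, and *SYNM* rose. *PKP2*, a plaque protein of desmosomes, was at 16.3 ± 0.377 FPKM-UQ at week 3 and 10 ± 2.01 at week 1 (0.69 ± 0.15 SE, adjusted p = 0.0058, edgeR). *ZYX* (zyxin), of focal adhesions, was at 330.9 ± 4.4 and 225.8 ± 37.3 FPKM-UQ (0.54 ± 0.11 SE, adjusted p = 0.0052, edgeR). Named after their values were seen, *JUP* (plakoglobin) rose (0.22, adjusted p = 0.029, edgeR), a call kept only without tissue 1-1 among the fits that leave out a tissue, and *PPL* (periplakin) fell (-0.28, adjusted p = 0.0069, edgeR). The large cytolinkers *DST* (dystonin) and *MACF1* did not pass, at log2 fold changes of 0.10 and 0.02 (adjusted p = 0.72 and 0.93, edgeR). Both were highest in tissue 1-1, and their other week 1 values were below all of week 3. *DST* was at 667.4 FPKM-UQ in tissue 1-1, 370.2 to 440.1 in the other week 1 tissues, and 488.5 to 503.8 at week 3. *MACF1* was at 797.8, 604.4 to 656.2, and 669.0 to 677.0.

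Of 19 chaperones and turnover factors, which keep filament proteins soluble or clear them, 7 rose and 2 fell (9 and 4 without tissue 1-1), with a median log2 fold change of 0.06. The small heat shock proteins in it differed in direction: *HSPB7*, *HSPB9*, and *HSPB1* rose and *HSPB8* fell. *HSPB2* and *HSPB3* did not pass, at log2 fold changes of 0.05 and -0.25 (adjusted p = 0.8 and 0.16, edgeR). *HSPB3* was at 63.4 FPKM-UQ in tissue 1-1, below all of week 3 (65.9 to 72.4). The other week 1 tissues, at 78.9 to 101.6, were above all of week 3. *HSPB7* was at 126.2, 132.5, and 140.0 FPKM-UQ in the week 3 tissues, against 37.4, 69.6, 70.8, 65.3, and 64.6 FPKM-UQ in tissues 1-1 to 1-5 (log2 fold change 1.10 ± 0.16 SE, adjusted p = 4.6e-04, edgeR). *HSPB9* was at 288.1 ± 8.25 FPKM-UQ at week 3 and 149.9 ± 14 at week 1 (SD, n = 3 and 5; 0.93 ± 0.08 SE, adjusted p = 1.3e-05, edgeR). *HSPB1* was at 1796.9 ± 25.3 and 1306.0 ± 53.5 FPKM-UQ (0.45 ± 0.06 SE, adjusted p = 3.3e-04, edgeR). The autophagy receptor *SQSTM1* was at 387.6 ± 4.01 and 277.0 ± 54.7 FPKM-UQ (0.47 ± 0.14 SE, adjusted p = 0.027, edgeR), and its call was lost without tissue 1-4 (adjusted p = 0.062, edgeR), 3-1 (0.088), 3-2 (0.083), or 3-3 (0.089).

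*CRYAB*, the alpha-B crystallin that binds desmin and whose mutations cause desmin aggregates in human muscle, also rose. It was at 656.3 ± 17.6 FPKM-UQ at week 3 and 510.9 ± 44 at week 1 (SD, n = 3 and 5; 0.35, adjusted p = 0.0069, edgeR) and, like the next genes, is named after its values were seen. *TRIM63*, a ubiquitin ligase of muscle, rose (0.36, adjusted p = 0.012, edgeR; up to 0.064 where a tissue was left out, with the call lost without 3-2 or 3-3), and the chaperone *HSPA8* rose (0.30, adjusted p = 0.029, edgeR; a call kept only without tissue 1-1). *HSPB8* fell (-0.27, adjusted p = 0.0086, edgeR; 0.057 without tissue 3-2), as did the protease *CAPN1* (-0.42, adjusted p = 0.0072, edgeR). *BAG3*, which works with *HSPB8*, was at 411.5 ± 1.35 FPKM-UQ at week 3 and 419.1 ± 32.4 at week 1 (-0.04, adjusted p = 0.73, edgeR).

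Of 19 nuclear lamina partners, 2 rose and 3 fell (2 and 4 without tissue 1-1), with a median log2 fold change of -0.03. Of all genes 23.5% passed, or 38.6% without tissue 1-1, so these counts are near or below the share of all genes. *TOR1B*, a torsin of the nuclear envelope, was at 59 ± 4.3 FPKM-UQ at week 3 and 41.6 ± 4.51 at week 1 (SD, n = 3 and 5; 0.49 ± 0.09 SE, adjusted p = 0.0029, edgeR). Nesprins connect the nucleus to the cytoskeleton. The nesprin genes *SYNE2* and *SYNE3* differed in direction, and *SYNE1* was not matched. *SYNE2* was at 338.2 ± 11.8 and 265.8 ± 23.7 FPKM-UQ (0.33 ± 0.08 SE, adjusted p = 0.0099, edgeR; 0.059 without tissue 3-1). *SYNE3*, which reaches intermediate filaments through plectin in mammals, was at 9.98 ± 0.875 and 13.5 ± 1.8 FPKM-UQ (-0.45 ± 0.13 SE, adjusted p = 0.029, edgeR). Its call was lost without tissue 1-4 (adjusted p = 0.059, edgeR), 1-5 (0.056), 3-2 (0.1), or 3-3 (0.13). *TMEM38A*, an ion channel of the reticulum and nuclear envelope of muscle, was at 347.4 ± 11.6 and 428.4 ± 35.2 FPKM-UQ (-0.32 ± 0.08 SE, adjusted p = 0.012, edgeR; 0.061 without tissue 3-1 and 0.064 without 3-3). *LEMD2*, an inner membrane protein named after its values were seen, fell (-0.33, adjusted p = 0.019, edgeR; lost without 3-1 or 3-2, up to 0.11). The lamin receptor *LBR* and the partner *TMPO* did not pass, at log2 fold changes of -0.21 and 0.00 (adjusted p = 0.17 and 0.98, edgeR).

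Newly made lamins are farnesylated, trimmed, and methylated at their end. Of the 3 enzymes tested, 2 rose (2 also without tissue 1-1). *ICMT*, the methyltransferase, was at 31.9 ± 1.61 FPKM-UQ at week 3 and 25.3 ± 2.03 at week 1 (SD, n = 3 and 5; 0.32 ± 0.09 SE, adjusted p = 0.02, edgeR), and its call was lost without tissue 3-1 (adjusted p = 0.076, edgeR) or 3-2 (0.098). *ZMPSTE24*, the protease that trims prelamin A, was at 71.1 ± 2.67 and 56.8 ± 6.35 FPKM-UQ (0.31 ± 0.09 SE, adjusted p = 0.026, edgeR). It passed only without tissue 1-1 among the 8 fits that leave out a tissue, with adjusted p of 0.051 to 0.11 in edgeR for the other 7. *FNTA*, the alpha subunit of the farnesyltransferase, was at 41.3 ± 4.65 FPKM-UQ at week 3 and 38.1 ± 2.23 at week 1 and did not pass (0.10, adjusted p = 0.45, edgeR).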

How the data were processed

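The 8 tissues were grouped by the labels into week 3 (n = 3) and week 1 (n = 5). Reads from an Illumina NovaSeq were processed by the authors with Partek Flow. The submitters' processing notes name STAR 2.7.3a and the build galGal6 (GRCg6a). The authors deposited estimated counts per gene, 80.98% of them whole, and a normalized signal called FPKM-UQ, which equaled the count plus 1 over 1 factor per tissue (largest deviation 0.000787% over 15392 genes). It was deposited for 15394 genes.

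The main test, on rounded counts, was that of edgeR 4.0.16 under R 4.3.3 (quasi-likelihood, TMM, filterByExpr), with Benjamini-Hochberg adjustment over 14311 genes. A standard error was the log2 fold change over the square root of F. Depth limits genes with few counts, and the spread between tissues was given as SD. The labels name the tissues as replicates without naming separate cultures or harvests, so p-values measure the spread between these tissues, which may be technical. Ratios were tested with exact permutations in scipy 1.17.1 (Python 3.11.15, numpy 2.4.6, pandas 2.3.3), and figures drawn with matplotlib 3.10.9. Genes were matched by symbol, then by RefSeq synonym (GRCg7b).

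Tried as alternatives were no filter, upper-quartile factors, DESeq2 1.42.0, the replicate number as a block, limma 3.58.1 on log2 FPKM-UQ (pseudocounts 1 and 0.1, or a minimum mean of 1), and each tissue left out. The edgeR, DESeq2, and limma procedures were tested on simulated data. The simulated tissues had the same spread in both weeks and none stood apart. The simulation therefore does not show how the procedures behave with a tissue like 1-1. The members and lists were chosen with earlier results of these data known. Named were the members, for each the 3 genes nearest in pattern, and of each list up to 4 genes with the largest change among those past 0.05 without overlap. No sequences are shown.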

Additional observations from a re-analysis of the deposited data

Results flagged for a closer look

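In 26 sets of 5 week 1 values, the gap between the highest or lowest tissue and its nearest neighbor was divided by the range of the 5 and set against Dixon's 95% critical value of 0.71. By this measure 3 sets held a tissue apart from the others, and chance gives about 1 in 20. *SYNM*, at 0.68, and *KRT13*, at 0.60, stayed below the critical value. In each case it was tissue 1-1. *HSPB7* was at 37.4 FPKM-UQ in tissue 1-1, against 64.6 to 70.8 in the other week 1 tissues. *ZMPSTE24* was at 67.9 FPKM-UQ in tissue 1-1, against 52.1 to 56.1 in the others. *SYNE2* was at 308.1 FPKM-UQ in tissue 1-1, against 252.1 to 258.1 in the others.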

How the results depend on the processing

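The deviations of same-numbered tissues from their week means correlated at 0.0248, -0.0102, and 0.00284. Tissues with different numbers correlated at -0.0509 to 0.0346. These values do not settle whether equal numbers share a harvest, since the week 3 tissues differed little from each other. With the replicate number as a block over 6 tissues, the log2 fold changes were -0.28 for *VIM* (adjusted p = 0.11, edgeR), 0.41 for *SYNM* (0.065), and -0.22 for the *LMNA* row (0.12), so none passed, and the genes called numbered 2064 of all and 16 of the partners, against 3367 and 31. In limma the *LMNA* row was at -0.25 with a pseudocount of 0.1 and at -0.24 with 1 (adjusted p = 0.054 in both). With 1 tissue left out, all genes called ranged from 2119 to 5498 and partners called from 19 to 41. The log2 fold change ranged from -0.01 to 0.06 for *DES*, -0.30 to -0.28 for *VIM*, 0.43 to 0.62 for *SYNM*, -0.29 to -0.24 for the *LMNA* row, and 0.09 to 0.30 for *LMNB1*. The log2 ratio differences ranged from -0.34 to -0.29 for *VIM* to *DES*, 0.40 to 0.57 for *SYNM* to *DES*, and 0.37 to 0.59 for *LMNB1* to the *LMNA* row, where the exact permutation test of 3 against 4 or 2 against 5 tissues cannot go below p = 0.0571 or 0.0952. Of 124 other settings for the 18 partner genes named by rule, 114 kept direction and call, 10 lost the call, and none turned its direction. The losses were of *SQSTM1* in 3 limma fits, *ZMPSTE24* in 1, and *ICMT*, *ZMPSTE24*, *SYNE3*, *SYNE2*, *KRT18*, and *KRT80* with the block. Of the genes that passed and were named after their values were seen, *NEFL*, *KRT14*, *CRYAB*, and *TRIM63* kept the call with the block. The others lost it, among them *IFFO1* (adjusted p = 0.074, edgeR), *PPL* (0.062), and *CAPN1* (0.064). The fits and ratios planned for *NES* and *LMNB2* were not run, because neither symbol was matched, and this left 3 ratios for the adjustment. The causes were not tested.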

Other observations

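In the RefSeq annotation *NES* lies between *BCAN* and *CRABP2*, and the count table has 3 rows without a symbol between these genes on chromosome 25, none of which is assigned to *NES* here. ENSGALG00000013239 (positions 2647908 to 2649621 of GRCg6a, minus strand, listed as a pseudogene) was at 568.1, 561.2, and 574.7 FPKM-UQ in the week 3 tissues, against 1266.4, 739.0, 672.0, 673.8, and 681.4 in tissues 1-1 to 1-5. All week 3 tissues were below all week 1 tissues, and tissue 1-1 was far above the rest. Its log2 fold change was -0.52 (adjusted p = 0.07, edgeR), and -0.30 without tissue 1-1 (adjusted p = 5.0e-05, edgeR). ENSGALG00000053624, a long noncoding row that overlaps it on the other strand (positions 2645368 to 2658859), was at 66.9 to 73.8 FPKM-UQ at week 3 and 89.8 to 157.8 at week 1 (log2 fold change -0.69, adjusted p = 0.0094, edgeR). ENSGALG00000039072 was at 20.7 ± 1.38 and 21.1 ± 2.37 FPKM-UQ (SD, n = 3 and 5; -0.04, adjusted p = 0.81, edgeR).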
